A study of Homo sapiens with 12 samples.

Results

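The 1000 widest H3K27ac regions at promoters of HCC70 cells were examined, together with the SREBP2 and RORγ regions that lie in them. HCC70 is a long-established line of triple-negative breast cancer, kept here with vehicle or for 24 h with XY018, a small-molecule antagonist of RORγ. Its dose was 5 µM by the sample labels and lower by the study's methods. Chromatin was immunoprecipitated with antibodies to H3K27ac, SREBP2 and RORγ, which with 2 treatments gave 6 groups of 1 library each, and 6 input libraries were not analysed here. No gene was altered in the cells, and all groups come from the same line. Of 95099 vehicle H3K27ac regions on chromosomes 1 to 22 and X, 17941 overlapped a promoter window, taken from 1000 bp upstream to 100 bp downstream of a protein-coding transcript start. The 1000 largest widths of these, with ties taken in genome order, were called domains. They amounted to 5.57% of the promoter regions and to 16.2% of their summed width, and 1082 of 19748 annotated coding genes had a promoter in one.

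Acetylation of lysine 27 on histone H3 is laid down by the acetyltransferases p300 and CBP at active promoters and enhancers. At most promoters the mark covers the nucleosomes beside the start site, and at some genes it runs on for several kilobases into the gene body or the upstream flank. SREBP2 is the membrane-tethered transcription factor that, once released, switches on genes of cholesterol synthesis and uptake, and RORγ is a nuclear receptor that in this subtype of breast cancer has been studied as a regulator of the same genes. The question here was whether the broadest acetylated promoters carry these factors, and how the factors and the mark in them read after the RORγ antagonist.

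Sequences at summits are shown for domains with SREBP2 and for a domain with neither factor. The strongest vehicle SREBP2 summits are shown for the 3 widest domains in which 75 bp to either side overlapped no annotated exon. They lie at chr7:5459258-5459408 in an intron of TNRC18, at chr22:50738743-50738893 in an intron of PLXNB2, and at chr1:154971997-154972147 upstream of ZBTB7B, outside coding genes. Plus-strand sequence of hg19 is given, and capitals mark CpG dinucleotides, of which there are 17, 16 and 15 in the 151 bp.
TNRC18: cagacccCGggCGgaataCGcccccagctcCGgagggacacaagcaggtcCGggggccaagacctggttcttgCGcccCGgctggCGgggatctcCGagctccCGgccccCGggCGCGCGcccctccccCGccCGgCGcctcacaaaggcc
PLXNB2: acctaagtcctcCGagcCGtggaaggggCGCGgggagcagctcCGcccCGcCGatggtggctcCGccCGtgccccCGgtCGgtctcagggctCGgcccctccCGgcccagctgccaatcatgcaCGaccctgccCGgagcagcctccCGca
ZBTB7B: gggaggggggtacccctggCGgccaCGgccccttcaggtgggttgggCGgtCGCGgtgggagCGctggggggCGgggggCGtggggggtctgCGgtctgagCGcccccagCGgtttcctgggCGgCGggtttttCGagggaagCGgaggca

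The H3K27ac summit of a domain with no SREBP2 and no RORγ region is also shown, picked after its values were seen. As the summit of another antibody, it is not at a like position to the SREBP2 summits above. It is at chr11:119991840-119991990 in an intron of TRIM29, a basal epithelial marker, with 2 CpG dinucleotides.
TRIM29: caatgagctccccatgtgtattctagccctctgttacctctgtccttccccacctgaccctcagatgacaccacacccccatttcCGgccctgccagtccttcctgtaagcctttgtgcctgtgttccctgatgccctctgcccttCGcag

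An SRE, the element TCACNCCAC bound by SREBP factors, was rare at the SREBP2 summits. The sequence at chr17:75318000-75318150 in an intron of SEPTIN9 is 1 of the few that hold it, marked in capitals.
SEPTIN9: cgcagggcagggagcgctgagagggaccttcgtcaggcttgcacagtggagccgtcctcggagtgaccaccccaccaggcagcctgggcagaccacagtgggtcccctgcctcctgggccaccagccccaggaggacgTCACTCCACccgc

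The libraries were of limited and unequal depth, from 3.65 to 6.16 tags per kb of genome as recovered from the region values. Depth with XY018 was 0.913 times that with vehicle for H3K27ac, 1.07 times for SREBP2 and 0.905 times for RORγ. General epithelial genes carried a promoter H3K27ac region for 11 of 11 markers checked, and basal genes for 10 of 15, with KRT14, KRT17, KRT6A, KRT6B and COL17A1 lacking one. Of markers of cells that the culture should lack, 2 of 6 fibroblast, 2 of 9 leukocyte and 1 of 5 endothelial genes had a region, and none of these had a domain. The hormone receptor gene ESR1 had a region and PGR had none.

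The widths that chose the domains ran from 2314 to 9800 bp, with a median of 2761 bp against 806 bp in the other 16941 promoter regions. The widest lay at TNRC18, a chromatin protein with a BAH domain, at chr7:5458890-5468689 and 9800 bp. It was followed by INTS1, a subunit of the Integrator complex, at 7867 bp, by PLXNB2, a semaphorin receptor, at 7546 bp, and by HDGF, a growth factor, at 7281 bp. The next were ZBTB7B, a zinc-finger transcription factor, at 6668 bp, and TFAP2A, the epithelial factor AP-2α, at 6421 bp. Widths of 6312 bp at IRS2, an adaptor of insulin signalling, 6081 bp at ANKRD13D, 6067 bp at MAFK, a small MAF protein, and 6045 bp at the start shared by MFSD1 and RARRES1 closed the first 10. At the threshold there was no gap, since the last domain, at MAPK10, and the first region outside, at STK24, were both 2314 bp wide. Their H3K27ac summits held 30 and 237 fragments with vehicle, so regions of equal width differed in height. The plot of widths by rank shows no step at rank 1000 in either H3K27ac list, and for XY018 a step after its 2 widest regions, which lie at JUNB and CRIP2.

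**Figure D1:**
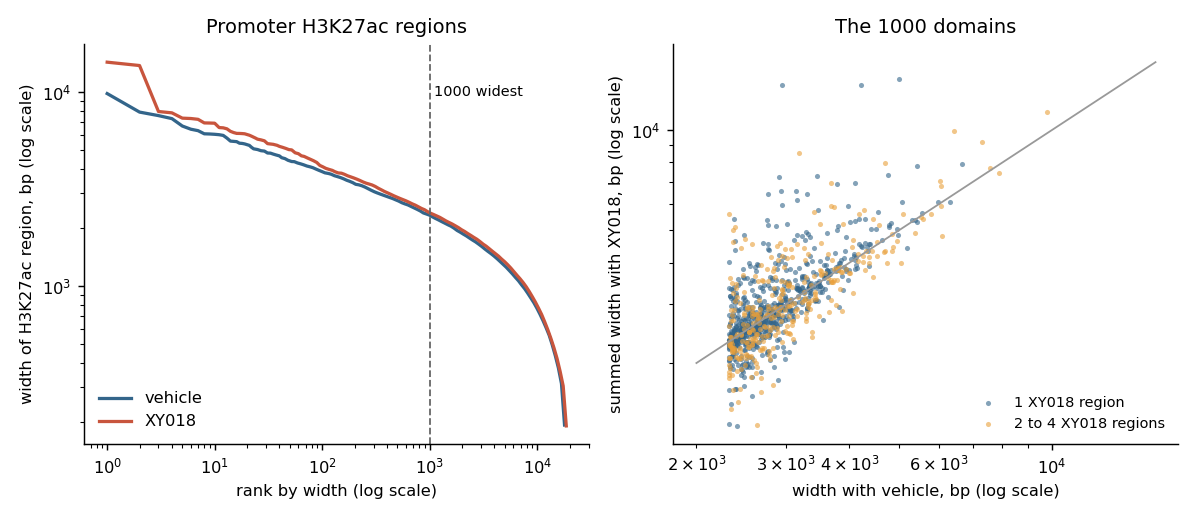
Left, width in bp of each promoter H3K27ac region against its rank, both on log scales, with vehicle and XY018 as separate lines and a dashed line at rank 1000. Right, each of the 1000 domains by its vehicle width and by the summed width in bp of the XY018 regions that overlap it, on log scales with the line of equality, where 675 domains overlap 1 XY018 region and 325 overlap 2 to 4.

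The H3K27ac summit of a domain lay more often downstream of the start than at other promoters. The reach to either side is part of the width that chose the domains and is given as a description. From the transcript start nearest the summit they extended a median of 1276 bp upstream and 1538 bp downstream, against 463 and 449 bp in the other promoter regions. The H3K27ac summit was downstream of that start in 66.9% of domains (exact 95% interval 63.9% to 69.8%) and in 54.3% of the others. The promoter window reaches 1000 bp upstream and 100 bp downstream, so narrow regions can enter with a summit far upstream more readily than far downstream. The part of this rule in the difference was not tested. A whole coding gene fitted inside 24 domains, which their length alone favours, among them the immediate-early genes JUNB and IER3, the transcription factor genes IRX3 and CEBPD, and TMSB10, which encodes a thymosin. Divergent starts of 2 genes within 1000 bp were found in 9% of domains and 8.59% of the others, a difference within the counting error of the domains.

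Domains were found on every chromosome analysed, in unequal shares. They made up 8.43% of the promoter regions of chromosome 21, 8.27% of chromosome 22 and 8.01% of chromosome 16, and 2.69% of those of chromosome X. Of the 1082 genes, 48 had 2 or more domains. PLEC, which encodes the cytoskeletal linker plectin and has many alternative first exons, had 5 of them.

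CpG-rich sequence marked most domains. In the 1001 bp around the start, the ratio of CpG observed to expected had a median of 0.819 in domains (95% interval 0.809 to 0.831) and 0.746 in the other promoter regions, and the GC share was 69.4% against 62.9%. Over the whole width the difference was not seen, with CpG ratios of 0.690 and 0.706. The class of other promoter regions next in width, from 1681 to 2314 bp, had a CpG ratio of 0.826 at the start, so the step was gradual. The local background under the H3K27ac summits was 1.41 times the genome-wide level in domains and 1.19 times in the others, and its part in the widths was not tested.

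SREBP2 occupied nearly all domains with vehicle. A region was present in 953 of the 1000, 95.3% (93.8% to 96.5%), against 70.6% of all promoter regions. Since a wider region meets more factor regions by its length alone, the same was read in promoter windows, where 93.8% of domains (92.1% to 95.2%) had an SREBP2 region against 78.1% of all, and within 500 bp of the H3K27ac summit, where 94.5% had one against 73.9%. The shares rose steadily with width among the other promoter regions, from 59.2% in the narrowest of 10 classes to 94.1% in the widest, as the plot of shares by width shows. The domains therefore did not differ from the next class beyond counting error.

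Each of the 10 widest domains had both factors with both treatments. At TNRC18 the strongest SREBP2 summit held 61 fragments with vehicle and 42 with XY018, and the strongest RORγ summit held 41 and 48. INTS1 had 70 and 47 for SREBP2 and 55 and 58 for RORγ inside the domain, while stronger vehicle summits of overlapping regions, of 79 and 69 fragments, lay outside it. PLXNB2 had 68 and 50 and 77 and 71, and MAFK, with the highest counts of the 10, had 85 and 71 and 86 and 76. SREBP2 counts were lower with XY018 at each of these, while RORγ counts were higher at TNRC18 and INTS1 and lower at PLXNB2 and MAFK. The SREBP2 ratios of the 10 at summits inside the domain, scaled as described below, ran from 0.546 at TFAP2A to 0.755 at HDGF, and the RORγ ratios from 0.653 at TFAP2A to 1.45 at MFSD1 and RARRES1.

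RORγ showed the same order at a lower level. Its regions were present in 903 domains with vehicle, 90.3% (88.3% to 92.1%) against 59.8% of all promoter regions, in promoter windows of 86.7% against 65.1%, and within 500 bp of the summit in 88.9% against 61.9%. Both factors had a region in 901 domains, 90.1% against 58.8% of all promoter regions. The strongest summits of the pair lay a median of 89 bp apart in those domains, and within 100 bp of each other in 52.1%, against 63.7% in the other promoter regions. With XY018, SREBP2 regions were present in 91.8% of domains against 62.9% of all, in promoter windows of 89.7% against 69.5%, and within 500 bp of the summit in 90.9% against 65.6%. RORγ with XY018 stood at 90.3% against 59.4%, in windows at 86% against 64.3%, and near the summit at 89.3% against 61.4%. In the class of other promoter regions next in width, windows had RORγ in 84.6% with vehicle and 83.6% with XY018. The high RORγ share was thus not particular to the domains.

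**Figure D2:**
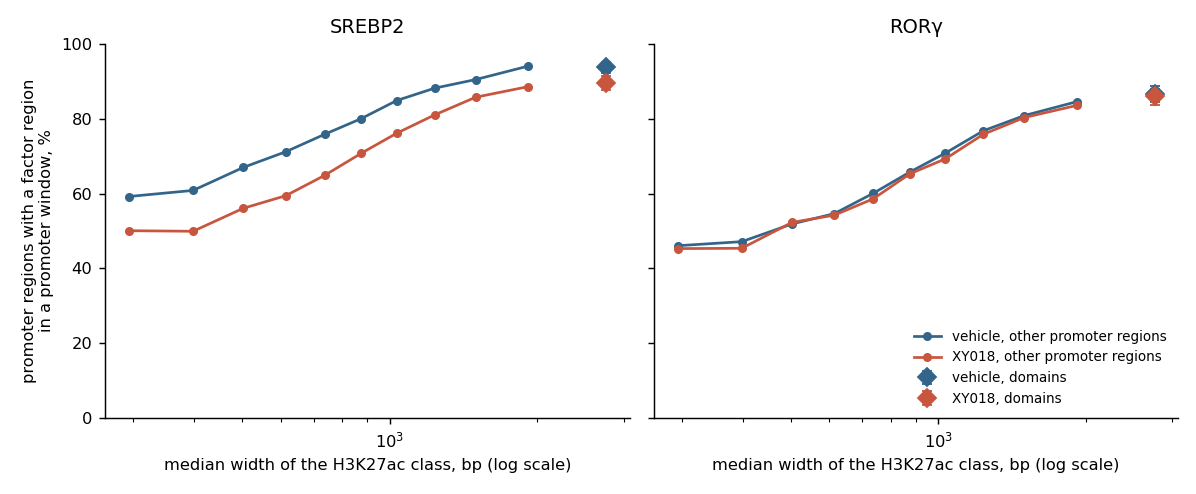
Share in percent of promoter H3K27ac regions with an SREBP2 (left) or RORγ (right) region in a promoter window, against the median width in bp of the class on a log scale. Circles are 10 classes of equal size of the other promoter regions and diamonds are the domains with exact 95% binomial intervals, and the wider classes have the higher shares for both treatments, but for the second SREBP2 class with XY018.

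The excess depended on how neighbouring H3K27ac regions were divided. When vehicle regions less than 1 kb apart were joined before ranking, only 413 of the domains lay in the 1000 widest joined regions, and SREBP2 was present in promoter windows of 82.7% of these against 81.3% of the other joined regions. For RORγ the values were 73.2% and 69.2%. Joined regions that held a domain kept 94.7% for SREBP2, and those that held none had 75.6%.

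Many domains held several factor regions. With vehicle, 497 had 2 or more SREBP2 regions, 49.7%, and 487 had 2 or more RORγ regions, 48.7%. Of all promoter regions 9.04% and 8.49% had as many, a difference that the greater length of the domains alone would favour. TNRC18 had the most SREBP2 regions, 8, followed by ZBTB7B with 7, and VWA1, ZFP36L2 and CCND1, the cyclin D1 gene, had 5 each. Per length the regions were sparser than at other promoters, with 5.56 SREBP2 regions per 10 kb against 8.34 and 5.27 RORγ regions against 7.06, although the covered share of the width was alike for SREBP2, 52.4% and 52.5%. The strongest SREBP2 summit lay within 500 bp of the start in 63.1% of the domains that had one, against 84.6% of the other promoter regions.

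SREBP2 summits at the domains were lower with XY018, by about as much as at other promoters. Each value is that of the strongest summit among the factor regions that overlap a domain, and this summit lay outside the domain in 11 of 953 for SREBP2 and 9 of 903 for RORγ with vehicle. With summits inside alone, a choice made after the data were seen, the median ratios were 0.628 and 0.956. The median number of fragments at the strongest SREBP2 summit was 39 with vehicle and 30 with XY018, and over the genome-wide background 37.9 and 24.7 times. The ratio of XY018 to vehicle, each over its own background, was below 1 in 910 of 917 domains with a region in both lists, 99.2% against 98.1% of all promoter regions, and its median was 0.629 (0.616 to 0.635) against 0.613 at the other promoters. RORγ had a median of 28 and 24 fragments, and its ratio was 0.956 (0.937 to 0.975) against 0.967, with 510 of 887 domains below 1, 57.5% against 55.3% of all promoter regions. With 1 library per group, the difference between treatments and that between libraries cannot be told apart.

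The lowest SREBP2 ratios among domains with at least 40 fragments over both libraries were at TSC22D4, which had 50 fragments with vehicle (37.1 to 65.9, exact Poisson 95% interval) and 19 with XY018, and at the start shared by HCST and NFKBID, with 31 and 12. VARS2, a mitochondrial tRNA synthetase gene, had 41 and 16, TBX6 had 33 and 13, and the immediate-early gene EGR1 had 35 and 14. Their ratios ran from 0.322 to 0.339. The highest, up to 1.25, were at the DAO and SSH1 start, with 17 and 25 fragments, at NAT14 and SSC5D with 43 and 59, and at SPACA6 with 31 and 42, followed by PLEKHN1 with 38 and 47 and APP, the amyloid precursor gene, with 27 and 32. These 5 were among the 7 domains in which SREBP2 was not lower, the others being at CSNK1A1 with ARHGEF37 and at ID4. At NAT14 and SSC5D and at PLEKHN1 the XY018 summit lay outside the domain, and summits inside gave ratios of 0.689 and 0.579.

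For RORγ the extremes lay on both sides of 1. ZBTB1 with ZBTB25, PAPPA, MRGBP and LANCL2 had low ratios, from 0.495 to 0.536. TMEM184A had the lowest, 0.269 from 37 fragments with vehicle to 9 with XY018, but its vehicle summit lay outside the domain and the summits inside held 9 and 9. FKBP2 went from 14 to 29 fragments, the highest named ratio at 2.29, and RCE1, SCYL3 and SRRT had ratios from 1.73 to 1.84. FKBP2 and RCE1 had SREBP2 ratios of 0.628 and 0.492, so a higher RORγ summit did not come with a higher SREBP2 summit there.

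**Figure D3:**
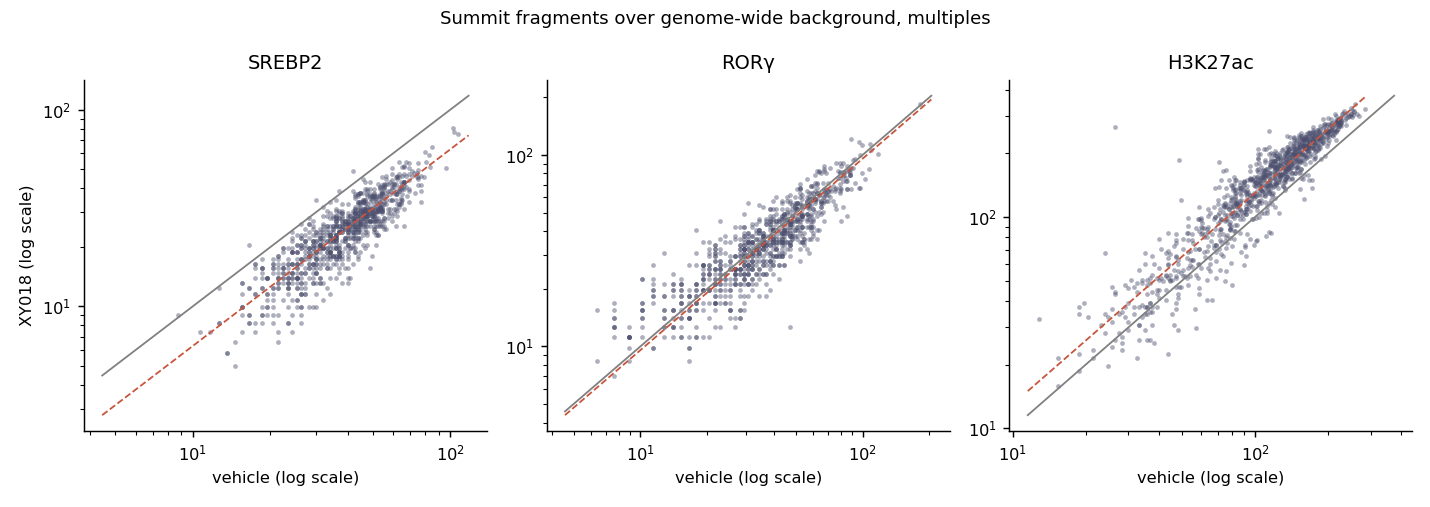
Fragments at the strongest SREBP2, RORγ and H3K27ac summit among the regions that overlap each domain, as multiples of the genome-wide background of its library. Vehicle is set against XY018 on log scales, with each point a domain that has a region in both lists. The solid line is equality and the dashed line the median ratio, 0.629 for SREBP2, 0.956 for RORγ and 1.30 for H3K27ac.

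Individual SREBP2 regions were mostly kept in the domains. Of 1660 vehicle regions in domains, 1394 overlapped an XY018 region, 84.0% (82.1% to 85.7%), against 39.8% of the whole SREBP2 list. The share was 84.8% in the other promoter regions and 33.6% elsewhere, and at the fold enrichments of the domain regions it was 84.5% and 77.6%. Position within the domain went with the outcome, since 90.0% of regions in a promoter window were kept and 66.1% (61.4% to 70.6%) of those outside. At the fold enrichments of the regions outside, those in windows had 73.5%. Of 1575 RORγ regions in domains 89.7% were kept (88.0% to 91.1%), against 36.4% of the whole list, with 91.9% in windows and 82.2% outside, and 84.6% in windows at the fold enrichments of the regions outside. The share was 91.1% in the other promoter regions and 32.1% elsewhere, and 90.4% and 78.6% at the fold enrichments of the domain regions.

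Few domains lost SREBP2 as a whole. Of the 953 with a vehicle region, 917 kept 1 or more, 96.2% against 88.4% of all promoter regions, and 36 did not. The greater length of the domains, which hold more regions each, would alone favour this difference. Of the other 47 domains 1 gained a region, 2.13% against 1.72% of all promoter regions. The widest of the 36 were at CRABP2, a retinoic acid binding protein gene, at ASF1B, a histone chaperone gene, and at PRSS8, which encodes the epithelial protease prostasin. The next were at FXYD3, a regulator of the sodium pump, and at ZC3H12A, the gene of an RNase of inflammatory transcripts. Their vehicle summits held 10, 6, 8, 17 and 14 fragments, well under the median of 39.

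Domains with neither factor were mostly CpG-poor. There were 45 of them, 4.5% (3.30% to 5.98%) against 28.5% of all promoter regions. Their median CpG ratio at the start was 0.263 (0.227 to 0.328) against 0.825 (0.813 to 0.839) in the other 955, while their widths were alike, 2787 and 2753 bp. The CpG ratios overlapped, from 0.0967 to 0.905 with neither factor and from 0.114 to 1.12 in the others. H3K27ac summits were lower in the 45 domains, with a median of 40 fragments (34 to 44) against 136 (131 to 141). The widest of the 45 were 2 domains at PDZK1IP1, of 3717 and 3682 bp and separated by 274 bp. SUB1, a transcriptional coactivator gene, and KPNA7, an importin gene, were also among the widest, at 3681 and 3505 bp.

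**Figure D4:**
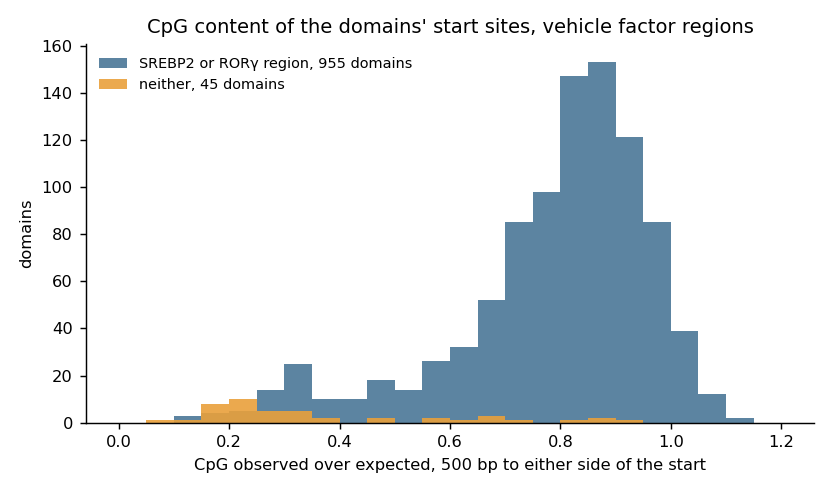
Number of domains by the ratio of CpG observed to expected in the 1001 bp around the start nearest the H3K27ac summit, for the 955 domains with an SREBP2 or RORγ vehicle region and the 45 with neither. Domains with neither gather at low ratios, with a median of 0.263 against 0.825.

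The same held when the domains were divided by sequence. Of 93 domains with a CpG ratio at the start under 0.4, 58.1% (47.4% to 68.2%) had an SREBP2 vehicle region in a promoter window and 37.6% a RORγ region, against 97.5% and 91.7% of the 907 others. Among the other promoter regions the shares were 35.7% and 25.1% under 0.4 and 86.3% and 72.4% above it. The value of 0.4 was chosen after the data were seen. Occupancy therefore differed between the CpG classes among domains and among other promoters alike. The classes also differed in H3K27ac height. Median summit fragments were 51 under 0.4 and 139 above it in domains, and 16 and 40 in the others. The part of height in the difference was not tested.

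The motif best represented at the factor summits was the GC box, GGGCGG, which was found on either strand within 100 bp of the strongest SREBP2 summit in 75.7% of the 953 domains (72.8% to 78.4%) and in 70.1% of 11710 other promoter regions. The median GC share of these windows was 76.6% and 74.6%. An SRE was found in 8 domains, 0.839% against 0.692%, the E-box CACGTG in 4.83% against 4.62% and the CCAAT box in 5.88% against 7.72%. At RORγ summits the RORγ core site AGGTCA was found in 3.88% of domains and 5.05% of the others, and the longer RORE in 1 of 903 domains. At H3K27ac summits the GC box was found in 70.6% of domains and 52.2% of the others, so in domains it was not particular to factor summits. The motifs differ in length and bases, so their shares are not alike in what they measure. A match is a description of the sequence and not of a binding site, and the part of GC content in these shares was not tested.

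The genes in the domains were described by lists written with earlier results of these data known, set beside the 5.48% of all coding genes that had a promoter in a domain. Genes of Notch and TGF-β signalling had 12 of 22, general epithelial markers 9 of 17, coactivators and corepressors 7 of 17, and immediate-early and growth response genes 11 of 28. Every gene of those 4 lists had a promoter H3K27ac region of some width, against 65.7% of all coding genes. Of the 17 epithelial markers, 8 had no domain. The order of the lists depended on the selection. The 500 widest held 533 of the 19748 coding genes. There the Notch and TGF-β list had 7 of 22, the epithelial list 7 of 17 and the coactivator list 2 of 17. With regions joined they had 8, 11 and 2, and the share of all genes in those is not given here.

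In the Notch and TGF-β list, HES4, a Notch target whose domain of 5558 bp also reaches ISG15, had 55 SREBP2 fragments with vehicle and 38 with XY018. SKI, a repressor of SMAD signalling, had 47 and 32 in a domain of 3826 bp, and SMAD6, an inhibitory SMAD, had 25 and 18 in 3299 bp. The receptors NOTCH1 and NOTCH3, the ligands JAG1 and JAG2, SKIL, SMAD3, ID1, ID4 and TGIF1 made up the rest. All 13 domains of the list had both factors under both treatments, against 90.1% and 89.6% of all domains with vehicle and XY018, and the median SREBP2 ratio was 0.610 against 0.629.

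Immediate-early genes encode transcription factors and RNA-binding proteins that respond within minutes to growth signals. The AP-1 gene JUNB had 33 SREBP2 fragments with vehicle and 26 with XY018 in a domain of 5011 bp. ZFP36L1 and ZFP36L2, which encode proteins that destabilise mRNA, had 31 and 21 fragments and 32 and 29, in domains of 4434 and 4376 bp. FOS, FOSL2, JUND, EGR1, IER2, IER3, NFKBIA and ZFP36 were the other members. All 12 domains of the list had both factors under both treatments, against 90.1% and 89.6% of all domains with vehicle and XY018. Their median SREBP2 ratio was 0.659 and their median RORγ ratio 1.03, against 0.629 and 0.956 over all domains.

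Some domains of epithelial markers lacked SREBP2. MUC1, a mucin gene, had a domain of 4144 bp in which the SREBP2 summit went from 43 to 32 fragments with XY018, and CLDN7, a tight junction gene, had 26 and 19 in 4053 bp. PRSS8 had 8 and no XY018 region in 3792 bp. RAB25 had no SREBP2 region and CLDN4 had 1 domain without either factor and 1 with SREBP2 for vehicle only. Of the 10 domains of the list 8 had SREBP2 with vehicle and 6 with XY018, against 95.3% and 91.8% of all domains, and their median CpG ratio at the start was 0.584, against 0.919 in the Notch and TGF-β list. Among basal markers 3 of 21 had a domain, S100A2 and TRIM29 with neither factor and CDH3, P-cadherin, with 47 and 38 SREBP2 fragments.

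Transcription factors of epithelia had a domain for 6 of 22 genes. TFAP2A had 2, the wider going from 31 to 20 SREBP2 fragments with XY018 and the narrower from 22 to 16, and FOXC1 had 54 and 33 in 3628 bp. KLF4 had 24 and 24 fragments and FOXQ1 29 and 32, which over the backgrounds gave ratios of 0.847 and 0.934. RUNX1 and GRHL1 completed the list. Of luminal and hormone receptor genes, GATA3 and XBP1 had a domain, 2 of 12. No gene of the fibroblast (0 of 16), leukocyte (0 of 12) or endothelial (0 of 6) lists had one.

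Coactivators with a domain included the bromodomain genes BRD2 and BRD3, the p300 relative CREBBP, NCOA1 and NCOA2. BRD2, whose domain of 4975 bp also reaches HLA-DMA, held 20 fragments at its SREBP2 summit with vehicle, 14 with XY018, and no RORγ region, while BRD3 had 34 and 19 in 2646 bp. Of clock genes 4 of 18 had a domain, BHLHE40, NPAS2, TEF and DBP.

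Genes of cholesterol synthesis had a domain about as often as all coding genes in the main selection, a comparison that rests on 1 gene. Of 21, 20 had a promoter H3K27ac region and FDPS, farnesyl diphosphate synthase, had a domain, 4.76% of the list. Among the 2000 widest regions there were 6 of 21, where 2165 of 19748 coding genes had a promoter, so there the list stood above all genes. With regions under 1 kb apart joined there were 3, and the share of all genes in those is not given here. The FDPS domain was 3416 bp wide, with 52 H3K27ac summit fragments with vehicle and 54 with XY018. Its strongest SREBP2 summit, 2852 bp downstream of the start, held 11 fragments (5.49 to 19.7) with vehicle and its RORγ summit 8, and neither antibody had a region there with XY018. Of 16 SREBP regulators and other targets 2 had a domain, among them FASN, fatty acid synthase. At FASN, in 3920 bp, the SREBP2 summit went from 44 to 27 fragments and the RORγ summits inside the domain held 40 and 40.

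Housekeeping lists lay near the share of all genes. Cytosolic ribosomal protein genes had a domain for 6 of 84, proteasome subunit genes for 1 of 39 and replication-dependent histone genes for 2 of 64, in 1 domain. SREBP2 fragments at the ribosomal protein domains were 34 with vehicle and 22 with XY018 at RPL13, 24 and 10 at RPL35, and 25 and 23 at RPL7A, and the median ratio of the 6 domains was 0.419, against 0.629 over all domains. HOX cluster genes had 5 of 39 in 3 domains, the widest of 5390 bp at HOXB7 and HOXB8.

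**Figure D5:**
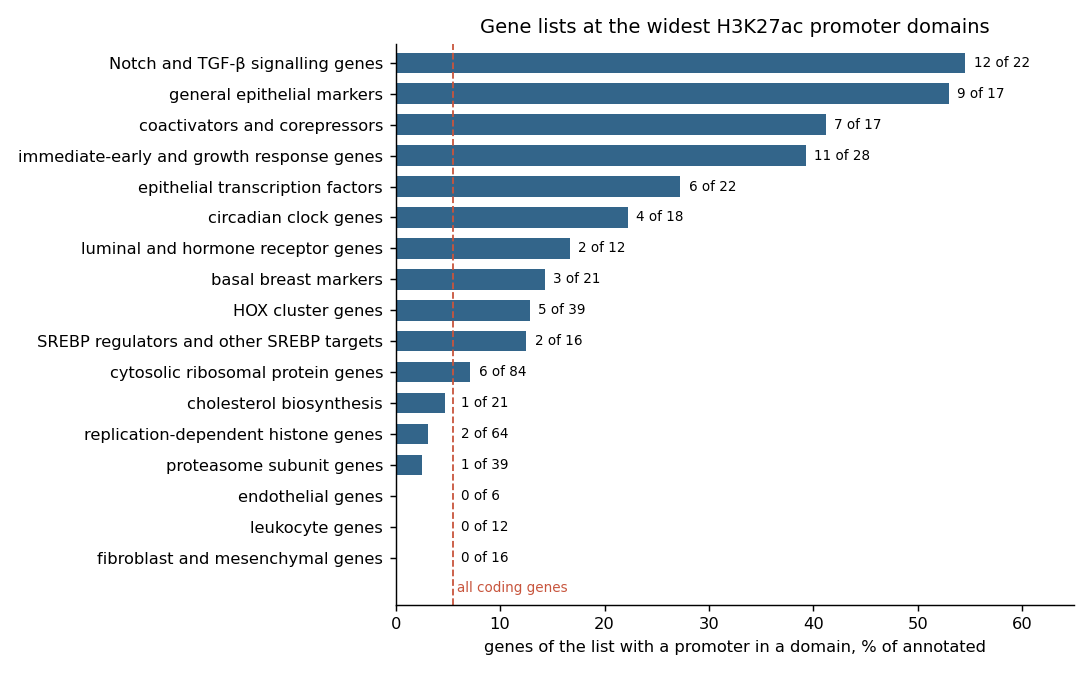
Share in percent of the annotated genes of each list that have a promoter in a domain, with the counts beside the bars and the share of all coding genes, 5.48%, as a dashed line. The Notch and TGF-β list has the longest bar, 12 of 22 genes, and the fibroblast, leukocyte and endothelial lists have none.

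H3K27ac at the domains was still present with XY018 in 1000 of 1000, against 91% of all promoter regions, a contrast whose vehicle side had chosen the domains. Of these, 325 were divided among 2 to 4 XY018 regions, against 7.87% of all promoter regions, a difference that the greater length of the domains alone would favour. The summed width of the XY018 regions was a median of 1.01 times the vehicle width (0.998 to 1.01), and 646 domains overlapped 1 of the 1000 widest promoter regions of the XY018 list. Chosen from the XY018 list instead, 642 of the 1000 widest overlapped a vehicle domain and 437 were divided with vehicle. The selections shared 704 genes, 65.1% of the 1082 with vehicle and 63.3% of the 1112 with XY018.

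H3K27ac summits held a median of 133 fragments with vehicle and 162 with XY018, and over the background the median ratio was 1.30 (1.28 to 1.31), against 1.26 at the other promoters. The ratio was below 1 in 103 domains, 10.3% against 22.2% of all promoter regions. Its XY018 value is the highest among the XY018 regions that overlap a domain, wherever the summit lay. How often that summit lay outside the domain was not counted, so a neighbour's summit can enter the ratio. The 2 domains at CRIP2, with 83 and 155 fragments with vehicle, took the same XY018 value of 195. Domains also had 2 or more XY018 regions to take the highest from more often, 32.5% against 7.87% of all promoter regions. Vehicle summits of the other promoter regions held a median of 30 fragments, so their ratios vary more by counting. The part of either in the share of ratios below 1 was not tested. Widths changed most where regions joined. CRIP2 had domains of 2947 and 4211 bp with vehicle and 1 region of 13668 bp with XY018, and JUNB had 5011 bp with vehicle and 14225 bp with XY018, in a region that also took in a vehicle region of 8615 bp beside it. S100A16 and ARHGEF2 followed, with 2.68 and 2.48 times the width.

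The narrowest with XY018 were at ACAP3, from 2631 to 1301 bp, at AKT1, the protein kinase gene, from 2402 to 1295 bp, and at POLR1E, CSNK1A1 with ARHGEF37, and LSM4, all at 0.494 to 0.610 times the vehicle width. At AKT1 the H3K27ac summit had 53 fragments with vehicle and 37 with XY018 and SREBP2 had 40 and 19, whereas at ACAP3 H3K27ac had 35 and 31 and SREBP2 had 35 and 23. Among the 10 widest domains the ratio of widths ran from 0.792 at ANKRD13D, with 4819 bp in sum, to 1.55 at TFAP2A, with 9942 bp. The TFAP2A sum took in an XY018 region of 4901 bp that was also the only one to overlap the second TFAP2A domain. That second domain was 3617 bp wide with vehicle, so the ratio of 1.55 is not a widening of the first domain alone.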

How the data were processed

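ChIP-seq of H3K27ac, SREBP2 and RORγ in HCC70 cells gave 6 region lists, each made by the authors from 1 library on hg19 with MACS2 2.1.0. The methods of the study name BWA as the aligner and the submitters' processing notes Bowtie2. The deposited columns hold, for each region, the fold enrichment, a ratio of summit pileup to local background, and p and q as −log10. The deposited display score was not used. H3K27ac lists are part of longer call sets, and the sources used here do not give how they were chosen.

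Summit fragments were recovered by inverting the fold and the −log10 p under the Poisson model of MACS, and 98.7% to 100% of regions gave whole numbers with a tolerance of 5% of a step. Fragments were divided by the genome-wide background. Genes came from GENCODE 44 lifted to GRCh37. Regions overlapped when they shared 1 bp. Shares have exact (Clopper-Pearson) and medians order-statistic 95% intervals, whose scope is counting error. Because groups were single libraries, nothing was tested, p-values were not calculated and differences between treatments have no replicate check. Scripts were tested on simulated data (Python 3.11.15, SciPy 1.17.1, pysam 0.24.0). The members and lists were chosen with earlier results of these data known. Named were the 10 widest domains, those at the threshold, the 3 widest of each list, the 5 widest with no factor or with SREBP2 for vehicle only, the 5 extremes of each ratio, and the 5 with most SREBP2 regions. Some members that these rules name are not reported here.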

Additional observations from a re-analysis of the deposited data

Results flagged for a closer look

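Wide H3K27ac regions also lay away from the coding promoters that define the domains. With vehicle, 444 regions at least as wide as the narrowest domain overlapped no coding promoter window, and all 444 overlapped an XY018 H3K27ac region. Of these 251 lay in a coding gene, 160 at the start of another kind of transcript and 109 at neither, at a median of 10321 bp from a coding start. An SREBP2 vehicle region was present in 59.0% (54.3% to 63.6%) and a RORγ region in 47.1% (42.3% to 51.8%), against 95.3% and 90.3% of the domains. The widest, of 8615 bp, lay 1128 bp from JUNB, and the next, of 7619 bp, held the start of the microRNA genes MIR200A, MIR200B and MIR429, which maintain epithelial identity. A region of 6800 bp lay at MIRLET7BHG, the host gene of let-7b.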

How the results depend on the processing

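No paired analysis was possible because each group holds 1 library. The width ratio, 1.01 with an interval that holds 1, fell below 1 under 3 alternatives given here. The SREBP2, RORγ and H3K27ac median ratios stayed on their side of 1 under all that were run. With vehicle regions joined, however, the RORγ interval, 0.971 to 1.01, held 1. Joining vehicle H3K27ac regions under 1 kb apart moved most: the share of domains with a factor in a promoter window became 82.7% for SREBP2 and 73.2% for RORγ, vehicle regions kept 69.8% and 79.7%, the RORγ ratio 0.991, the domains also among the widest with XY018 35.4%, the width ratio 0.725 and the CpG ratio at the start 0.733. With both lists joined, an alternative added after the data were seen, the width ratio was 0.991. Windows of 5 kb gave 97.5% and 94.8% and a CpG ratio of 0.808. Factor regions with q of at most 1e-05 gave 91.6% and 80.1% and 92.1% of RORγ regions kept, and with q of at most 0.01 91.3%. Equal-length lists gave 88.7% of SREBP2 and 91.5% of RORγ regions kept, and an overlap of 50% gave 87.7% for RORγ and a width ratio of 0.991. Scaling by tags per kb gave an SREBP2 ratio of 0.697. The 500 widest gave 533 genes and 59.8% among the widest with XY018, the 2000 widest 2165 and 68.2%, and the XY018 list a width ratio of 1.03. Of the other values 54 moved and 122 did not, and the causes were not tested. Low summit counts, as at FDPS, limit single ratios.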
